A study of Mus musculus with 5 samples.

Results

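Chemokines are small secreted proteins that direct the movement of leukocytes, and they are read by receptors on those cells. Probes for the mouse genes of both families were taken from 2-colour liver arrays by 1 rule, the gene symbol: every probe that is not a control and whose RefSeq accession leads to a symbol of the Ccl, Cxcl, Cx3cl, Xcl, Ccr, Cxcr, Cx3cr or Xcr series. The rule found 65 probes for 52 genes, 34 ligands and 18 receptors, among 41174 probes and 17016 named genes. No measured value entered the choice. Of the 58 symbols of this form in the annotation, 6 had no probe matched by accession and were not analysed here (Ccl21a, Ccl21b, Ccl21d, Ccl26, Ccl27b and Cxcl11).

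The arrays measured total RNA of 5 livers, called livers 1 to 5, from male C57BL/6N mice. All 5 form 1 group: per the labels, the mice had an ethanol diet for 8 weeks followed by 3 ethanol binges of 5 g per kg. On each array the liver was labelled with Cy5. Cy3 marked the same purchased RNA throughout, the reference RNA, named in the labels as an assorted total RNA from mouse, with strain C57BL/6N and tissue liver. Age and the treatment behind the purchased RNA are not stated in the labels. The series was run beside others whose groups are not analysed here, and no liver on these arrays lacked ethanol. A ratio says only how a liver stood against the purchased RNA, and differences between livers are differences within the treated group. Nothing in the labels tells if each sample is its own animal, and p-values cover the spread between these 5 samples alone, which may be technical. In whole liver, fewer cells of a type and less RNA per cell cannot be told apart.

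Most chemokines bind G protein-coupled receptors that signal through Gi proteins, and the ligands fall into families by the spacing of their first cysteines (CC, CXC, CX3C and XC). In liver, CXC ligands that act on CXCR2 draw neutrophils, CCL2 and its relatives draw monocytes through CCR2, and the ligands of CXCR3 draw T and NK cells. CXCL12, CXCL13 and CCL21 are better known as homeostatic signals that place haematopoietic cells and lymphocytes, although their level can also change in inflammation.

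Arrays differed in brightness, with median signals of 78.4 to 177 for the livers and 75.5 to 151 for the reference RNA, array 1 being lowest in both. In the liver channel 77.3% to 81.2% of spots were well above background and in the reference channel 69.9% to 78.4%, no spot was saturated, and 2.32% to 4.05% of spots were marked as outliers by the scanner software and left out of the ratios. All 7 hepatocyte markers on the arrays that were tested were above background on all 5 arrays in both channels. Across genes, which are not independent replicates, the ratios of any 2 livers had a Pearson's r of 0.39 to 0.75.

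Of the 65 chemokine and receptor probes, 44 (67.7%) were well above background in the liver channel on all 5 arrays, and 37 (56.9%) in the reference channel. Over all 41174 probes these shares were 72.3% in the liver channel and 65.5% in the reference channel, and over the 24375 probes with a gene symbol 81.5% and 76.6%, so the family's probes were detected less often than those of named genes at large, a difference that was not tested. On a single array the liver channel detected between 47 and 50 of the 65 probes and the reference channel between 40 and 50. Counted by gene, 36 of the 52 were above background on all arrays in the liver channel and 30 in the reference channel. Above background stands throughout for the scanner software's mark of well above background, which a signal somewhat over its local background can miss. The probes of 8 genes were not well above background on any array in either channel. They were the CC ligands Ccl4, Ccl12 and Ccl20, the CXC ligands Cxcl3 and Cxcl5, and the receptors Ccr7, Ccr8 and Cxcr6. Their transcripts were not detected by this mark, which sets no level for them. Some of these encode well-known inflammatory signals: CCL4 is a macrophage inflammatory protein, CCL20 the ligand of CCR6, and CXCL5 a neutrophil attractant.

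Testing needed a probe with 3 or more values and detection by at least 1 channel on 3 or more arrays, which 40 of the 52 genes met. Ratios are log2 of liver over reference RNA after background correction with an offset of 50 and loess normalization, so that a value of 1 is a doubling, and the offset draws the ratio of a dim probe towards 0. With limma and Benjamini-Hochberg adjustment over all 14915 genes tested, 5 of the 40 genes were above the reference RNA at an adjusted p under 0.05 and 3 were below it. Of all genes tested, 14.2% were above and 12.8% below, or 26.9% in either direction. The 8 of 40 that passed make 20% of the family, so these genes did not pass more often than genes at large. From the scanner software's own processed signals 5 were above and 5 below, and in the authors' deposited ratios 6 above and 5 below. The median log2 ratio was 0.02 over the 40 genes and -0.02 over all genes tested. Of the 26 ligands tested 1 was above and 3 were below. Of the 14 receptors tested, 4 were above and 0 below. The difference between ligands and receptors was not tested.

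**Figure D1:**
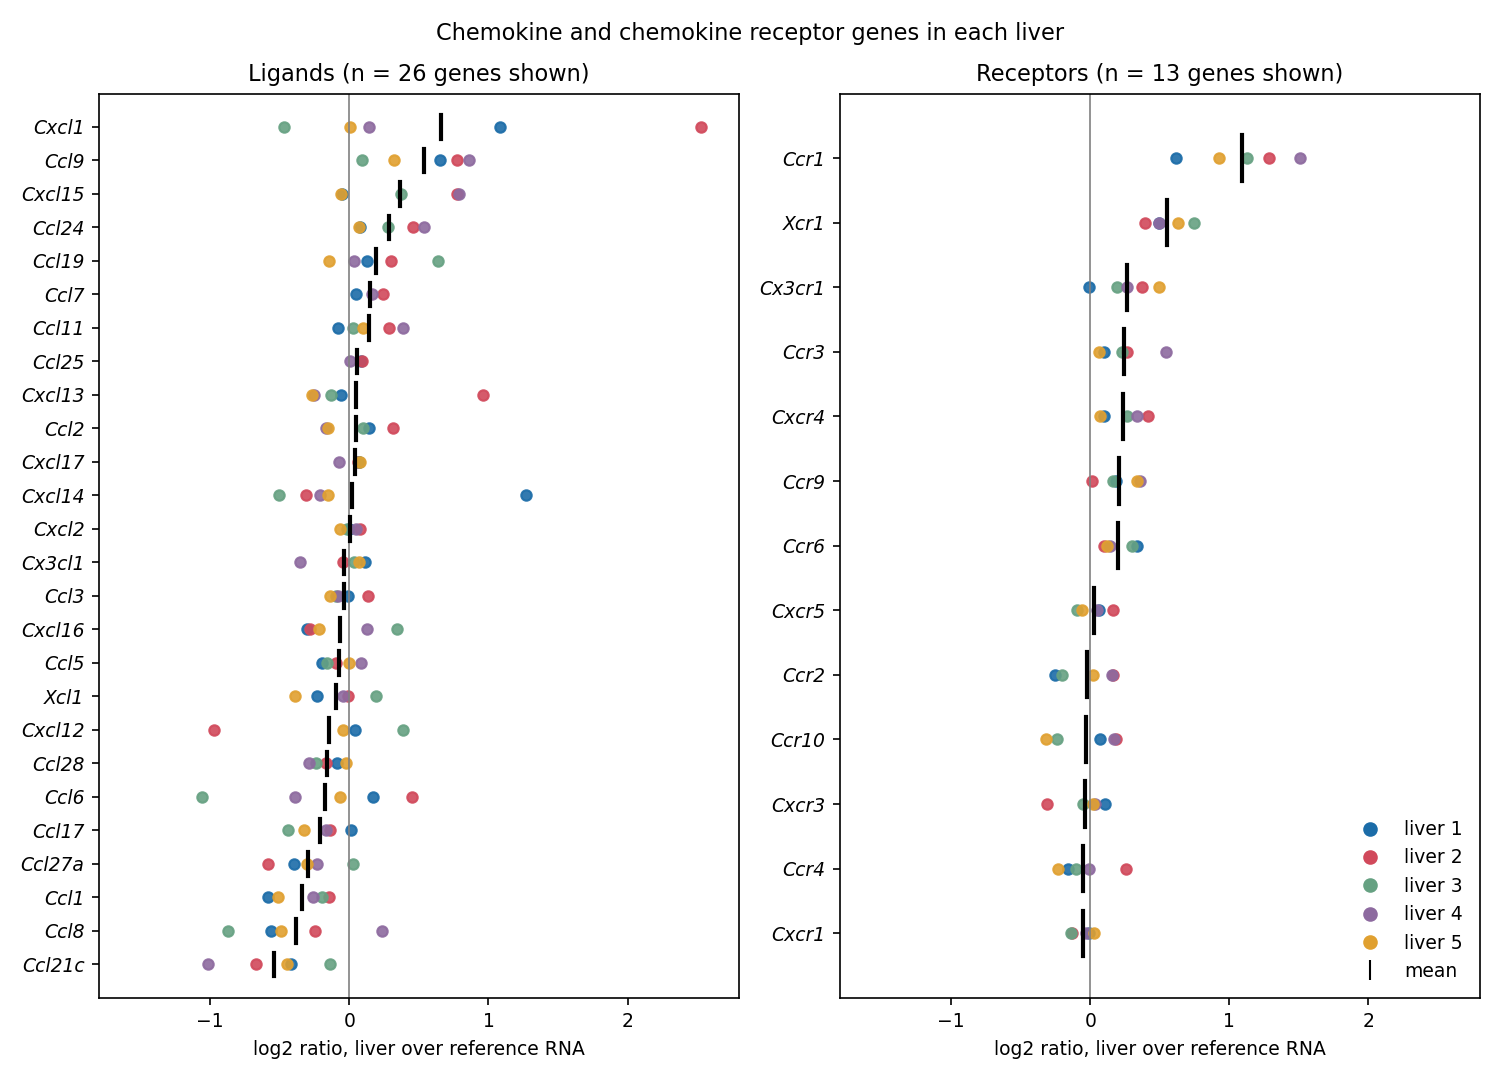
Log2 ratio of liver over reference RNA (x axis) for the 26 ligand genes and 13 of the 14 receptor genes tested, ordered by mean. Each point is 1 liver and each black bar the mean. Ccr1 lies right of 0 in all 5 livers, with a mean of 1.09, while Cxcl1 runs from -0.47 to 2.53 and Cxcl13, Cxcl14 and Cxcl12 each have 1 liver far from the others.

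Cxcl1, the mouse neutrophil attractant KC that acts on CXCR2, had the widest spread of the family. Its log2 ratio was 1.08, 2.53, -0.47, 0.14 and 0.00 in livers 1 to 5. Livers 2 and 1 were high, liver 3 lay below the reference RNA and the others lay near it. In liver 2 it ranked 7th from the top of 14772 genes with a value, and in liver 1 it ranked 118th of 14695. The mean was 0.66 ± 1.19 (SD, n = 5) and did not differ from 0 (limma, adjusted p = 0.293). The signals behind the ratios are given next and were not scaled for the brightness of each array. The background-subtracted signal in the liver channel was 1260.4, 7467, 1266, 1547 and 1283, against 588, 1287, 1539, 1707 and 1827 for the reference RNA on the same arrays. Liver 2 stood apart in the liver channel, whereas in liver 1 the high ratio went with the lowest reference signal of the 5 arrays and a liver signal close to that of livers 3 and 5. Array 1 was also the dimmest array in both channels. Its median signal over all spots was 78.4 for the liver and 75.5 for the reference RNA. The liver median was 177 on array 3 and 111 on array 5. Which channel set the high ratio of liver 1 was not tested. From the scanner software's processed signals the ratios were 1.08, 2.59, -0.53, 0.18 and 0.05, in the same order of livers.

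The other CXCR2 ligands were dim. Cxcl2, the macrophage inflammatory protein 2 of mouse, was above background in the liver channel on 3 arrays and in the reference channel on 0. Its ratios lay between -0.07 and 0.07 (limma, adjusted p = 0.934). Its signal in liver 2 was 27.7 against 11.7 for the reference RNA, and the highest liver signal was 36.4, in liver 3. Cxcl3 and Cxcl5 gave no signal well above background, also in liver 2. The high ratio of liver 2 among the CXCR2 ligands on the arrays was therefore measured for Cxcl1 alone, and the probes of its relatives were too dim to set a bound of use.

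Cxcl1, Cxcl2 and Cxcl3 lie in 1 cluster on chromosome 5, and Cxcl10 and Cxcl13 lie on the same chromosome. The promoters of the 5 genes, from 250 bases before to 50 bases after the RefSeq start (build GRCm38.p6), are shown because Cxcl1, Cxcl10 and Cxcl13 were high in the same liver, and Cxcl2 and Cxcl3 are the nearest relatives of Cxcl1. Capitals mark matches, on either strand, to GGGA, any 2 bases and TTCC, a core of the NF-kB site, and to GAAA, any 2 bases and GAAA, a core of the interferon-stimulated response element.

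Cxcl1 (chr5:90890995-90891294, plus strand): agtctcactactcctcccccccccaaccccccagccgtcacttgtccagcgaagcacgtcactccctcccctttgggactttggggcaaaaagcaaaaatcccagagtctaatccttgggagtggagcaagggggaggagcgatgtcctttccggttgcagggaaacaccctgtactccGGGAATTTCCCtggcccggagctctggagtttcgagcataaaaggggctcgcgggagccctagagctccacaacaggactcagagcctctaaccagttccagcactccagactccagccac
Cxcl2 (chr5:90903649-90903948, plus strand): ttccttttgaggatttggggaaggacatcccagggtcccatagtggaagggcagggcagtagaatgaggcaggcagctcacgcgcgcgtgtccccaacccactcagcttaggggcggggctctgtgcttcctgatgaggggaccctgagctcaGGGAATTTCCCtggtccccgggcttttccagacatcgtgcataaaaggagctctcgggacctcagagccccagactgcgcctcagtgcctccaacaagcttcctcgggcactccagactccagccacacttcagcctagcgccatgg
Cxcl3 (chr5:90785851-90786150, plus strand): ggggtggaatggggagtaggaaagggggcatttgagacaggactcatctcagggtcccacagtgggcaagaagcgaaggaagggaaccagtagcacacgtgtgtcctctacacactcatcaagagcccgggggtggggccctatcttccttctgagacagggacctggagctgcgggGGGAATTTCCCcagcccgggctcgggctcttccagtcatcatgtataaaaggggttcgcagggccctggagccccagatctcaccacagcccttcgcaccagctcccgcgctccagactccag
Cxcl10 (chr5:92348840-92349139, minus strand): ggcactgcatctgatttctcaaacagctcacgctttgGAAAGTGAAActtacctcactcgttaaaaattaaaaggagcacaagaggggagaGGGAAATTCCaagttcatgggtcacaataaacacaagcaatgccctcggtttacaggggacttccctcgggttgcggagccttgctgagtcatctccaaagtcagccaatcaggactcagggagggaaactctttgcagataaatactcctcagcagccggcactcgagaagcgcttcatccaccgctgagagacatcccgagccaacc
Cxcl13 (chr5:95956689-95956988, plus strand): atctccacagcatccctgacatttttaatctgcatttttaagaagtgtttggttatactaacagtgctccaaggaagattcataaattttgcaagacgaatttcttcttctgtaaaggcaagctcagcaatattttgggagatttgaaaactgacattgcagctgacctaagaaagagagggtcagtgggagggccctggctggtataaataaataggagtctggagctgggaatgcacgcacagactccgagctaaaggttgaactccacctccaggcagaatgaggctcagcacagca

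The promoters of Cxcl1, Cxcl2 and Cxcl3 hold the same 11 bases, GGGAATTTCCC, which begin 71, 97 and 73 bases before the start. The promoter of Cxcl10 holds GGGAAATTCC 159 bases before the start and GAAAGTGAAA 213 bases before it. Within this window the Cxcl13 promoter has neither set of letters, and holds TATAAA 46 bases before the start. The NF-kB letters occurred in 1.47% of 32851 RefSeq promoters of this length, and in those of 6 of the 38 chemokine and receptor genes with a promoter in the table (Ccl1, Ccr3, Cxcl1, Cxcl2, Cxcl3 and Cxcl10). The interferon letters occurred in 3.44% of promoters and in those of 3 of the 38 genes (Ccl19, Cxcl10 and Cxcl14). The percentages count single promoters, whereas a family gene was counted if any of its promoters matched, so the shares are not in the same unit. A match is a string of letters, not a measured site, and clustered relatives such as Cxcl1, Cxcl2 and Cxcl3 share much of their sequence. Of the 6 genes with the NF-kB letters, 4 were tested. Of these, 3 (Cxcl1, Cxcl2 and Ccl1) had their highest ratio in liver 2, at 2.53, 0.07 and -0.14, while Ccr3 was highest in liver 4. Of all genes tested, 23.7% were highest in liver 2. Ccl1 was below the reference RNA in all 5 livers, and Cxcl2 was not above background in the reference channel on any array. The promoters were shown because of the high values in liver 2, so the count is no independent result. Cxcl10, too dim to test, had its highest liver signal in liver 2, and Cxcl3 was not detected.

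Cxcl13, which draws B cells through CXCR5, had log2 ratios of -0.06, 0.96, -0.13, -0.25 and -0.27. The value of liver 2 stood apart from the other 4, which lay close together. By Dixon's criterion for 5 values, a single liver stood apart in 3 of the 37 genes of the family with all values (Cxcl13, Cxcl14 and Cxcl17), compared with 5.21% of all genes. Its liver signal was 13.0, 105.8, 22.6, 18.1 and 18.4, against 18.3, 18.0, 24.4, 38.1 and 47.1 in the reference RNA. It was above background in the liver channel on 1 array and in the reference channel on 2, so its ratios rest largely on signals that were not above background. The mean ratio was 0.05 ± 0.52 (SD, n = 5; limma, adjusted p = 0.861). Cxcr5, its receptor, had a ratio of 0.17 in liver 2, its highest, and a mean of 0.03 ± 0.10 (SD, n = 5; limma, adjusted p = 0.741).

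The 3 ligands of CXCR3 are induced by interferon gamma. Cxcl10 was too dim to be tested, with signal above background in the liver channel on 1 array and in the reference channel on 0. Its liver signal was 6.3, 83.2, 10.4, 13.4 and 5.3, against 19.5, 26.9, 16.8, 25.9 and 25.2 in the reference RNA. Liver 2 had the highest liver signal, and no ratio is given, since the reference signal was not above background. Cxcl9 was the reverse: its liver signal lay between -2.9 and 16.4 and was not above background on any array, whereas the reference RNA gave between 24.0 and 48.3 and was above background on 2. No ratio or bound is given for Cxcl9 either, since the reference signal was above background on only 2 arrays and the liver signal on none. No test was made. The liver 2 signal of 16.4 was the highest of the livers for Cxcl9 as well, yet not well above background. Cxcr3, their receptor on T and NK cells, had its lowest ratio in liver 2, at -0.31, and a mean of -0.04 ± 0.16 (SD, n = 5; limma, adjusted p = 0.690).

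Cxcl12, the ligand of CXCR4 that retains haematopoietic cells in their niches, was low in liver 2. It was measured by 2 probes. The brighter one gave log2 ratios of 0.04, -0.97, 0.39 and -0.05 in livers 1, 2, 3 and 5, with the spot of liver 4 marked as an outlier. The other probe gave -0.18, -1.37, -0.04, 0.15 and 0.04. In both, liver 2 was the lowest by a wide gap, and the others lay between -0.18 and 0.39. Signals of the brighter probe were 3109.8, 1764, 7059, 5303 and 2961 in the livers, against 3099, 3668, 4549, 4779 and 4319 in the reference RNA, so liver 2 was also lowest within the liver channel. By deviation from the median liver, Cxcl12 in liver 2 ranked 45th from the bottom of 14772 genes. The mean was -0.15 ± 0.58 (SD, n = 4; limma, adjusted p = 0.635). Markers of stellate cells, stromal cells of the liver, were also lowest in liver 2: the 5 tested had mean ratios of -0.06, -0.55, -0.28, -0.29 and -0.10 in livers 1 to 5, with Col1a1 at -1.86 and Reln at -0.85 in liver 2, whereas Des was highest there, at 0.52. Their part in the Cxcl12 values was not tested. Its receptor gene Cxcr4 had its highest ratio in liver 2, at 0.42, by the brighter of 2 probes that disagreed with each other, as given with the receptors.

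Cxcl14, expressed in epithelia and stroma, stood apart in another liver. Its log2 ratios were 1.27, -0.31, -0.50, -0.21 and -0.16. Liver 1 was high and the other 4 lay below the reference RNA. The liver signal was 639, 80.2, 137, 102 and 111, against 229.6, 105, 164, 138 and 176 in the reference RNA. The reference signal of array 1 was the highest of the 5 as well, on the array that was dimmest overall. By deviation from the median liver it ranked 4th from the top of 14695 genes in liver 1. The mean of 0.02 ± 0.71 (SD, n = 5; limma, adjusted p = 0.964) fell to -0.29 without liver 1 (limma, adjusted p = 0.0424).

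**Figure D2:**
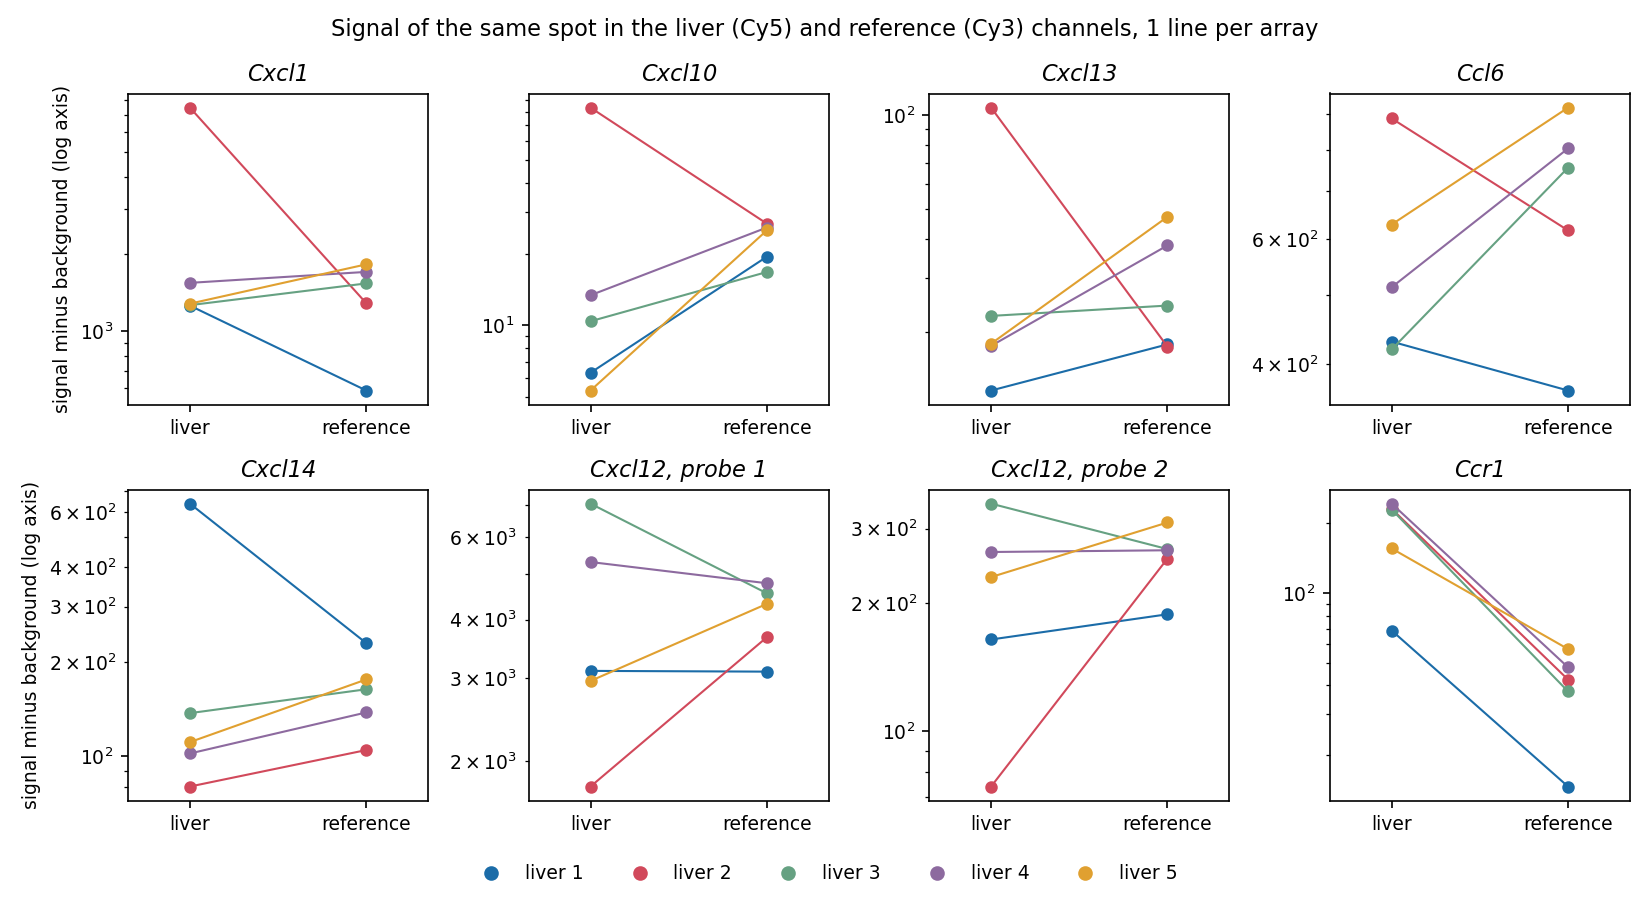
Background-subtracted signal before normalization (y axis, log scale, differing between panels) of the same spot in the liver channel, at the left, and the reference channel, at the right, with 1 line per array. Liver 2 reached 7467 for Cxcl1, 83.2 for Cxcl10 and 105.8 for Cxcl13 and was lowest for both Cxcl12 probes, liver 1 reached 639 for Cxcl14, and every Ccr1 line falls towards the reference.

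The spread between livers was tested against the spread usual for genes of like brightness. The F test, over 12450 genes detected on every array in liver and reference RNA, passed 0 of them (0%) after adjustment, and 695 (5.58%) at an unadjusted p under 0.05. It held 28 genes of the family. The smallest unadjusted values of limma's F test were 0.000962 for Cxcl1, 0.0088 for Cxcl14, 0.0179 for Cxcl12 and 0.0238 for Ccl6. The value of Cxcl12 came from its dimmer probe, with an SD of 0.62, since the test needed a value on every array. For Cxcl1 the SD of 1.19 compared with a usual 0.20 (limma, adjusted p = 0.428). These 4 were the only ones of the 28 under 0.05 before adjustment. With the usual spread taken as known, an alternative chosen after seeing the data, 1292 genes (10.4%) passed, among them Cxcl1, Cxcl12, Cxcl14, Cxcl15 and Ccl6. A spread that missed the test is not shown to be small.

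Liver 2 was the highest liver for 14 of the 40 genes tested (35%), compared with 23.7% of all genes tested. Its ratios also spread most over all genes tested, with an SD of 0.47 against 0.32 to 0.40 in the other livers. The family's mean log2 ratio was 0.06, 0.17, 0.01, 0.11 and -0.02 in livers 1 to 5. Genes that act around the chemokines were read from lists chosen by role. The NF-kB subunits and feedback genes, which share inducers with Cxcl1, had mean ratios of 0.09, 0.85, -0.26, -0.10 and -0.17 in livers 1 to 5, and 9 of the 11 tested were highest in liver 2. Among them Bcl3, a nuclear IkB protein, was at 1.60 in liver 2 and between -0.73 and 0.14 in the others. Tnfaip3, which encodes the NF-kB inhibitor A20, was at 1.48 in liver 2 and between -0.20 and 0.20 elsewhere. Its reference signal was above background on 3 arrays. Relb and Nfkbia were at 1.27 and 0.82 in liver 2. Against 0, Relb and Nfkbie of this list were above the reference RNA (limma, adjusted p = 0.0390 and 0.00960).

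Adhesion genes, whose products hold leukocytes to the vessel wall, had a mean ratio of 0.41 in liver 2 and between -0.15 and -0.08 in the others, and 7 of the 8 were highest in liver 2. Icam1 was at 1.44 in liver 2 and between -0.22 and 0.25 in the others, and the endothelial selectin Sele at 0.94 and between -0.47 and -0.05. Sele was dim, above background on 3 arrays in the liver channel and on 4 in the reference channel. Against 0, however, 1 of the 8 was above the reference RNA, the selectin Selp (limma, adjusted p = 0.0128), and 3 were below it in every liver: Vcam1, Itgal and Itgb2 (limma, adjusted p = 0.0108, 0.0109 and 0.00405). Over all 63 genes of these lists on the arrays, 56 were tested, 30 were highest in liver 2, 5 were above the reference RNA and 12 below it, with a median of 0.01. Of all genes tested, 23.7% were highest in liver 2, 14.2% were above and 12.8% below. The 12 below included Adam17, a sheddase that frees membrane-bound chemokines such as CX3CL1, at -0.50 ± 0.15 (SD, n = 5; limma, adjusted p = 0.00397), Dpp4, which clips the start of several chemokines, at -0.32 ± 0.17 (SD, n = 5; limma, adjusted p = 0.0241), and Gnai2, the Gi subunit used by chemokine receptors in leukocytes, at -0.34 ± 0.13 (SD, n = 5; limma, adjusted p = 0.0140). The decoy receptors Ackr1, Ackr2, Ackr4, Ccrl2 and the endothelial Gpr182 did not pass in either direction, with means between -0.35 and 0.17.

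Markers of some leukocytes were higher in liver 2 as well. The 10 neutrophil markers, all tested, had mean ratios of 0.03, 0.61, 0.00, 0.15 and -0.14, and 8 of the 10 were highest in liver 2. Among all genes tested, 23.7% were highest there. S100a9 was at 1.17 and S100a8 at 1.00 in liver 2, with the other livers between -0.62 and -0.02 for S100a9. All 10 were above background in the liver channel on all arrays except S100a8, which was on 3. The 9 T and NK cell markers tested averaged 0.43 in liver 2 and between -0.18 and -0.01 in the others, with 4 of the 9 highest there. The 4 B cell markers averaged -0.08 in liver 2, and 0 of the 4 were highest there. The macrophage markers averaged -0.14 in liver 2 and between -0.55 and -0.17 in the others. Over all livers 7 of the 10 were below the reference RNA, against 12.8% of all genes tested. Of the 6 sinusoidal endothelium markers, 3 were below it and 0 above. Of the 7 hepatocyte markers tested, 3 were above it and 0 below. The part of leukocytes in the values of Cxcl1, Cxcl10 and Cxcl13 was not tested.

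**Figure D3:**
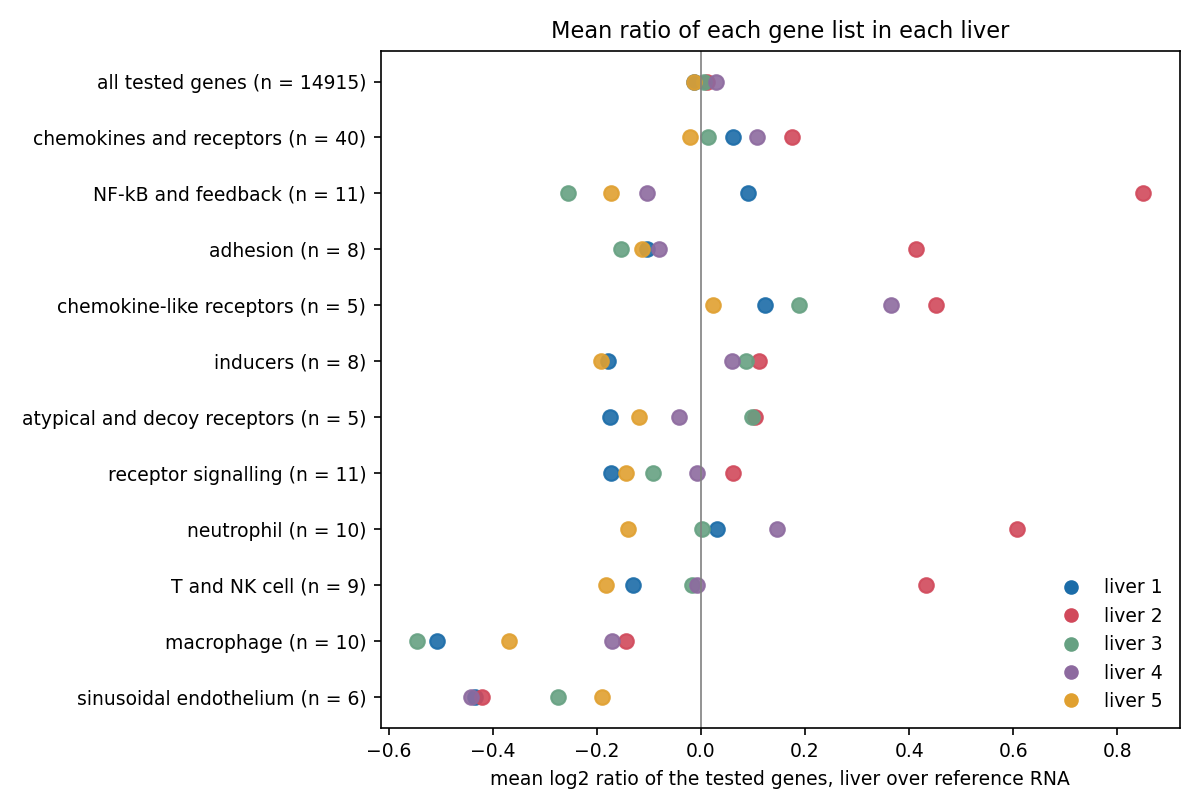
Mean log2 ratio of liver over reference RNA (x axis) of the tested genes of each list, with 1 point per liver and the number of genes in brackets. Liver 2 stands apart for NF-kB and feedback genes (0.85), neutrophil markers (0.61), T and NK cell markers (0.43) and adhesion genes (0.41), while the chemokines and receptors average 0.17 in liver 2 and between -0.02 and 0.11 in the other livers.

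Among the CC ligands, Ccl9 was the one above the reference RNA. Ccl9 and Ccl6 are CCR1 ligands of mouse myeloid cells and share a cluster on chromosome 11. Ccl9 had log2 ratios of 0.65, 0.78, 0.09, 0.86 and 0.32. All 5 livers lay above 0, liver 3 least. The mean was 0.54 ± 0.32 (SD, n = 5; limma, adjusted p = 0.0119). Ccl6 had 0.17, 0.45, -1.06, -0.39 and -0.07. Livers 2 and 1 were above the reference RNA and liver 3 far below it, 92nd from the bottom of 14429 genes. The mean was -0.18 ± 0.58 (SD, n = 5; limma, adjusted p = 0.535). The liver signal of Ccl6 was 430.2, 887, 419, 513 and 629, against 367, 617, 756, 805 and 918 in the reference RNA. Liver 3 was the lowest liver for both genes. The macrophage markers averaged -0.51, -0.14, -0.55, -0.17 and -0.37 in livers 1 to 5, so liver 1 lay close to liver 3. Within that list C1qa was lowest in liver 3, at -1.15, whereas Csf1r was highest there, at 0.31. The part of macrophages in the Ccl9 and Ccl6 values was not tested.

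None of the inflammatory CC ligands Ccl2, Ccl7, Ccl3, Ccl5 and Ccl8 passed in either direction. Ccl2, the main CCR2 ligand, was the best measured, with 10 spots per array. Its ratio was 0.14, 0.31, 0.10, -0.17 and -0.15, highest in liver 2. Single spots of 1 array varied with an SD of 0.05 to 0.15, and the spot means of the livers with an SD of 0.21. These are unlike measures, and spots of 1 array do not show the technical spread between arrays. The mean was 0.05 ± 0.21 (SD, n = 5; limma, adjusted p = 0.728). Ccl7, another monocyte attractant, gave 0.05, 0.24 and 0.16 in livers 1, 2 and 4, the other spots being marked as outliers (limma, adjusted p = 0.325). Ccl3, a CCR1 ligand that was above background on 2 arrays in each channel, lay between -0.14 and 0.14, again with liver 2 highest (limma, adjusted p = 0.636). Ccl5, which T cells make in large amounts, lay between -0.19 and 0.09 (limma, adjusted p = 0.418). Ccl8 averaged -0.39 ± 0.41 (SD, n = 5; limma, adjusted p = 0.0760), with liver 3 lowest at -0.87 and liver 4 alone above 0. It was below the reference RNA in 3 of 15 alternative settings: at -0.85 from the processed signals (limma, adjusted p = 0.0483) and in the authors' deposited table (limma, adjusted p = 0.0494), and at -0.54 without liver 4 (limma, adjusted p = 0.0177).

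The homeostatic CC ligands Ccl21c and Ccl27a and the T cell product Ccl1 were below the reference RNA. Ccl21c, a CCR7 ligand of lymphatic vessels, had ratios of -0.42, -0.67, -0.14, -1.02 and -0.45. All 5 livers were below 0. The mean was -0.54 ± 0.33 (SD, n = 5; limma, adjusted p = 0.0125). Its signals were 381, 926, 563, 1027 and 351 in the livers and 524, 1553, 519, 2521 and 692 in the reference RNA. The reference signal varied by array here although the same RNA was used, and the livers with the highest signal, 4 and 2, had the highest reference signal beside them. The genome holds near-identical copies of this gene (Ccl21a, Ccl21b and Ccl21d), which the probe may not tell apart. Ccl1, the ligand of CCR8, had ratios of -0.58, -0.14, -0.20, -0.26 and -0.51, below 0 in all 5 livers (mean -0.34 ± 0.20, SD, n = 5; limma, adjusted p = 0.0183). Ccl27a, a skin-associated ligand of CCR10 with a near-identical copy Ccl27b, had -0.40, -0.58, 0.02, -0.23 and -0.30 (mean -0.30 ± 0.22, SD, n = 5; limma, adjusted p = 0.0472). Ccl1 lost its call without liver 5 (limma, adjusted p = 0.0589). Ccl27a lost its call in 4 of 16 alternative settings.

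The other homeostatic ligands did not pass. Ccl24, a CCR3 ligand that attracts eosinophils, was positive in all 5 livers, between 0.07 and 0.54, with a mean of 0.28 ± 0.21 (SD, n = 5; limma, adjusted p = 0.0507). Its second probe gave a mean of 0.01 ± 0.12 (SD, n = 5). Ccl24 was above the reference RNA in 6 of 16 alternative settings, among them the processed signals (limma, adjusted p = 0.0471). With both probes averaged the mean was 0.14 (limma, adjusted p = 0.204). Ccl19, the other CCR7 ligand, ranged from -0.15 to 0.63, with liver 3 highest (limma, adjusted p = 0.226), and its second probe averaged -0.12. Ccl25, a CCR9 ligand of gut and thymus, averaged 0.06 ± 0.05 (SD, n = 3; limma, adjusted p = 0.684), and its second probe -0.18 ± 0.08 (SD, n = 5). Cx3cl1, the membrane-bound fractalkine, lay between -0.35 and 0.11 (limma, adjusted p = 0.763). Ccl17 was negative in 4 livers and Ccl28 in 5, with means of -0.21 ± 0.18 (SD, n = 5; limma, adjusted p = 0.0897) and -0.16 ± 0.11 (SD, n = 5; limma, adjusted p = 0.0983). In 2 of 16 alternative settings Ccl17 was below the reference RNA. Cxcl15, a lung chemokine, split the livers by its brighter probe: livers 2 and 4 were at 0.77 and 0.79, liver 3 at 0.37 and livers 1 and 5 at -0.05 and -0.06 (mean 0.37 ± 0.42, SD, n = 5; limma, adjusted p = 0.0919). Its second probe gave -0.18, 0.14, 0.28, 0.40 and 0.07 in livers 1 to 5, with liver 2 below liver 3. That probe was dim, above background on 3 arrays in the liver channel and on 0 in the reference channel.

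Cxcl16, a transmembrane ligand of CXCR6 that scavenges oxidised lipoprotein, gave opposite readings by probe. The probe that was tested had ratios of -0.31, -0.28, 0.34, 0.13 and -0.22, with a mean of -0.07 ± 0.29 (SD, n = 5; limma, adjusted p = 0.659). The brighter probe could not be tested, because the spots of 3 arrays were marked as outliers. With these spots kept it was positive on all 5 arrays, with a mean of 0.52 ± 0.10 (SD, n = 5; limma, adjusted p = 0.00219). No direction is given for this gene. Its receptor Cxcr6, carried by NKT cells of the liver sinusoids, was not above background.

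Of the receptors, Ccr1 was the only gene of the family above the reference RNA by 2-fold, a size that 0.865% of all genes reached in that direction and 0.416% in the other. CCR1 is carried by monocytes, neutrophils and other myeloid cells and binds CCL3, CCL5, CCL6 and CCL9. Its log2 ratio was 0.62, 1.28, 1.13, 1.51 and 0.93, above 0 in all 5 livers. The mean was 1.09 ± 0.34 (SD, n = 5), or 2.13-fold (limma, adjusted p = 0.00102). The liver signal was 68.9, 231, 229.6, 243 and 156, against 14.6, 42.3, 37.6, 47.8 and 57.3 in the reference RNA. It was the higher of the 2 channels on each array. The reference signal was above background on 4 of 5 arrays. The size depends on the treatment of dim signals: the processed signals gave a mean of 2.03, with every liver between 1.83 and 2.25. Without liver 4 the mean was 0.99, just under 2-fold. Ccr1l1, a close relative outside the symbol rule, was also above the reference RNA in all 5 livers, at 0.40 ± 0.08 (SD, n = 5; limma, adjusted p = 0.00447), as was Fpr2, a formyl peptide receptor of neutrophils, at 0.58 ± 0.39 (SD, n = 5; limma, adjusted p = 0.0161).

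Xcr1, the XCL1 receptor of cross-presenting dendritic cells, was at 0.49, 0.39, 0.74, 0.49 and 0.63. Its spread was small, with a mean of 0.55 ± 0.14 (SD, n = 5; limma, adjusted p = 0.00229). A second, dimmer probe of Xcr1 averaged 0.10 ± 0.13 (SD, n = 5) and did not pass when every probe was tested on its own (limma, adjusted p = 0.325). Cx3cr1, the fractalkine receptor of monocytes, had -0.01, 0.37, 0.20, 0.27 and 0.49, with a mean of 0.26 ± 0.19 (SD, n = 5; limma, adjusted p = 0.0474). It lost its call in 9 of 16 alternative settings. Cxcr4 had 0.10, 0.42, 0.27, 0.34 and 0.07 by its brighter probe, with a mean of 0.24 ± 0.15 (SD, n = 5; limma, adjusted p = 0.0418). Its dim second probe, above background on 1 array in the liver channel, averaged -0.20 ± 0.14 (SD, n = 5). With every probe tested on its own both passed, in opposite directions (limma, adjusted p = 0.0426 and 0.0396). The direction of Cxcr4 is therefore not settled by these arrays.

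Cxcr2, the receptor for Cxcl1 on neutrophils, was bright on every array in both channels but could not be tested, because 4 spots of 1 probe and 3 of the other were marked as outliers. With those spots kept, the brighter probe gave 0.82, 0.70, 0.57, 0.74 and 0.54, with a mean of 0.67 ± 0.12 (SD, n = 5), and the other 0.41 ± 0.12 (SD, n = 5). Both were above 0 on all 5 arrays, and the ratio of liver 2 was not the highest. Cxcr1, a relative of Cxcr2, was dim, with ratios between -0.14 and 0.03 (limma, adjusted p = 0.434).

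The receptors of monocytes, eosinophils and lymphocytes named next did not pass by the probe that stood for each gene. Ccr2, the monocyte receptor for CCL2, lay between -0.25 and 0.16 (limma, adjusted p = 0.835). Ccr3, the eosinophil receptor, was positive in all 5 livers by both probes, with means of 0.24 ± 0.19 (SD, n = 5; limma, adjusted p = 0.0699) and 0.29 ± 0.08 (SD, n = 5). The second, dimmer probe passed when every probe was tested on its own (limma, adjusted p = 0.00570), and so did the mean of both probes, at 0.27 (limma, adjusted p = 0.0200). Ccr9 and Ccr6 were also positive in all 5 livers, with means of 0.21 ± 0.14 (SD, n = 5; limma, adjusted p = 0.0792) and 0.20 ± 0.11 (SD, n = 5; limma, adjusted p = 0.0800). Ccr4 and Ccr10 lay on both sides of 0, with means of -0.05 and -0.03.

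**Figure D4:**
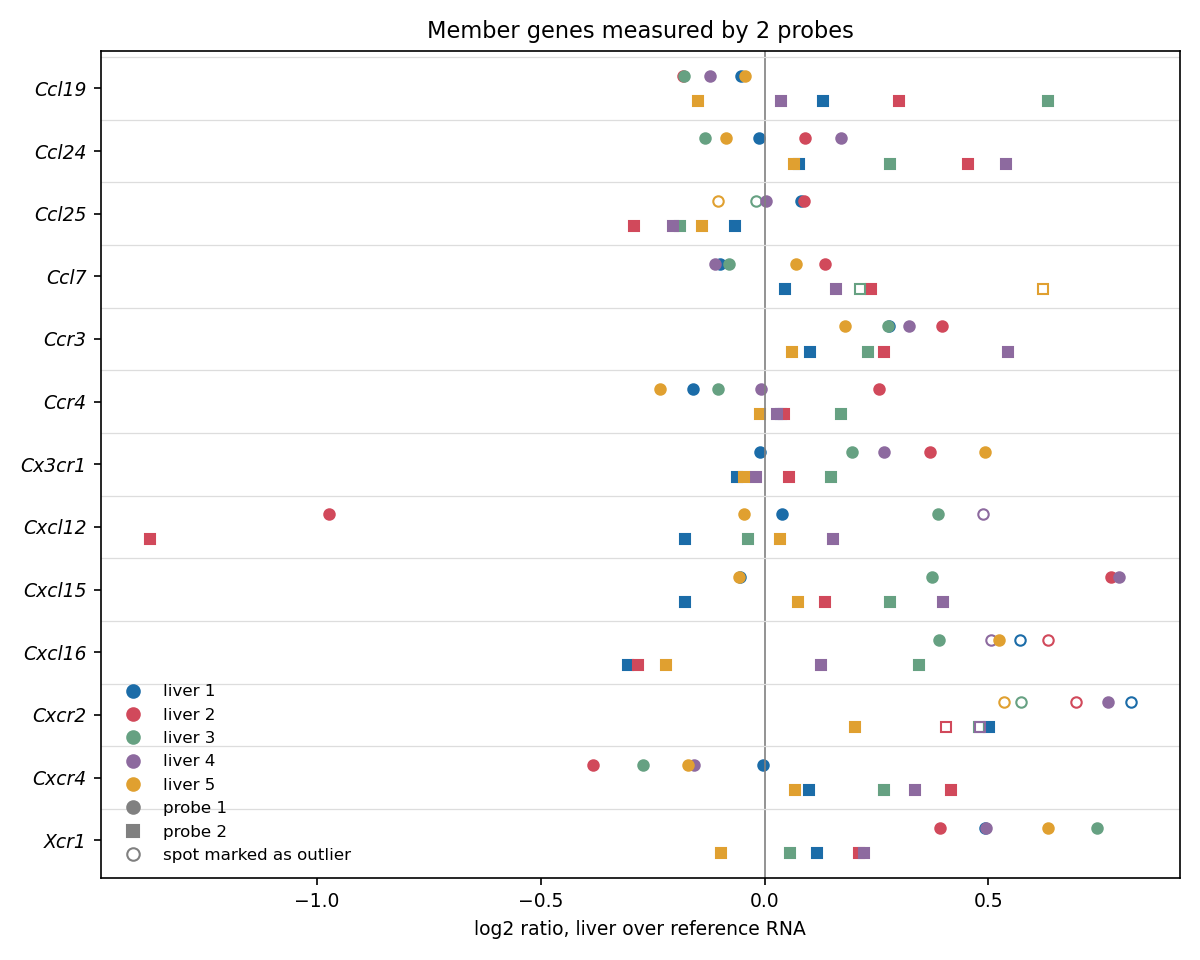
Log2 ratio of liver over reference RNA (x axis) for the 13 genes measured by 2 probes, with circles for 1 probe and squares for the other, 1 colour per liver, and open symbols for spots marked as outliers. Both Cxcl12 probes put liver 2 lowest (-0.97 and -1.37), both Ccr3 probes lie right of 0, and the probes of Cxcr4 and Cxcl16 lie on opposite sides of 0 in most livers.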

How the data were processed

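Per the file headers, the authors read spot intensity in Agilent Feature Extraction 11.5.1.1 as the median brightness of spot and local background in 2 channels. The deposited processed intensities were background-subtracted, detrended and dye-normalized, per the file headers. The deposited log10 ratios of the processed intensities were not used. A deposited table holds the authors' log2 ratios of 40599 probes. Of these values, 99.7% lay within 0.001 of the processed ratio, and the table's column medians were -0.03, -0.07, -0.08, -0.10 and -0.03. The files hold no mean intensity, so medians were used. The headers name build mm8, so no probe coordinates are given. Probes were named by RefSeq accession (GRCm38.p6 annotation table): 24375 of 41174 matched. RefSeq's table of that build gave the promoters.

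In limma 3.58.1 (R 4.3.3), background was corrected with normexp (offset 50), each array was normalized by loess, control and outlier spots were left out, and spots of a probe were averaged. The brightest tested probe stood for a gene, and in the spread test the brightest probe with a value on every array. The mean ratio was tested against 0 (two-sided, eBayes with trend and robust prior, adjusted p under 0.05), and the spread by an upper-tail F test. An exact sign-flip test of 5 arrays cannot go below 0.0625 and was not used. The spread of the reference RNA itself does not enter, and without dye swaps a dye effect does not cancel. The tests were tried on simulated data first. The number of arrays limits the precision. The genes, lists and tests were chosen with earlier results of these data known. Named with values are genes fixed by role, every gene past a test, the 4 highest, 4 lowest and 4 most spread among those detected on every array in both channels, and genes whose probes oppose. Others named in the text were chosen after their values were seen. The values of 1 receptor gene are counted in the totals but not reported here.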

Additional observations from a re-analysis of the deposited data

Results flagged for a closer look

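In 3 of the 37 chemokine and receptor genes with values in all 5 livers, the highest or lowest liver was separated from its nearest neighbour by more than 0.71 of the gene's whole range, Dixon's critical value for 5 samples. Chance flags about 1 in 20 groups, and 714 of 13703 genes (5.21%) were separated in this way. Cxcl13 was highest in liver 2, at a log2 ratio of 0.96 against -0.27 to -0.06 in the others, with the reference signal above background on 2 arrays. Cxcl14 was highest in liver 1, at 1.27 against -0.50 to -0.16. Cxcl17, a mucosal chemokine whose probe was above background in the reference channel on 1 array, was lowest in liver 4, at -0.08 against 0.06 to 0.08. The gap of Cxcl1 in liver 2 was smaller than the critical value because liver 1 was high too.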

How the results depend on the processing

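The number of chemokine and receptor genes below the reference RNA was 5 with the scanner software's processed signals, with the authors' deposited ratios and with no filter on dim probes. Leaving out 1 liver gave between 3 and 5 genes above (3 without liver 2, 3 or 4) and between 1 and 3 below (1 without liver 5). The count higher by 2-fold was between 0 and 1 when 1 liver was left out (0 without liver 4), and 0 with the filter on both channels, under which Ccr1 was not tested. The spread test passed 2 genes with median centring (Cxcl1 and Cxcl14) and 5 with the prior variance taken as known. Cxcl14 turned to -0.29 without liver 1 (its values without each liver ran from -0.29 to 0.15) and Cxcl16 to 0.52 with outlier spots kept, where another probe of Cxcl16 represents the gene. Other causes were not tested. Over 40 genes and 16 settings, 594 ratios kept their side of the threshold, 18 lost their call, 12 gained one and 2 turned and gained a call. Of the 594, 561 kept the sign of the mean and 33 did not, in genes not called. In all, 35 ratios of 14 genes changed sign, and 0 of these genes were past the threshold as reported. Ccr1 was past the threshold in all 15 settings that tested it, and Xcr1, Ccl9 and Ccl21c in all 16. Cxcr4 lost its call in 4 settings. No paired analysis was possible because the samples form 1 group. Slide or scan day as a block could not be fitted, since each array has its own slide and all share 1 scan day. Signal over background limits the 8 genes never above it, and also Cxcl2, Cxcl9, Cxcl10, Cxcl13 and Ccl22.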
